A study of Mus musculus with 9 samples.

Results

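RNA of the lateral nasal gland was compared between wild-type C57BL/6 mice, here called B6 as in the array titles, and wild-type 129/Sv mice. The arrays were chosen by the strain and the wild-type genotype in their labels, which gave 4 B6 and 2 129/Sv arrays, 6 of the 9 arrays in the series. Each array held RNA from 10 male mice aged 2 to 3 months whose glands had been pooled, and the labels do not give the substrain of either strain. The other 3 arrays came from Cyp2g1-null mice of the same sex and age on a mixed 129/Sv and C57BL/6 background, a line for which both wild-type strains served as controls, and they entered the filter on low signals and the estimate of the spread between pools. The labels do not say whether pools were collected or hybridised on separate days, so the p-values below measure the spread between these pools only. With 2 arrays for 129/Sv, the number of arrays limits the precision of every value.

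The lateral nasal gland is a large serous gland whose duct opens at the front of the nose. Such glands bathe the nasal mucosa in odorant-binding proteins, secretoglobins and antibacterial proteins, and they carry enzymes that act on inhaled chemicals. Inbred strains can differ in RNA level through sequence variants in or near a gene and through extra gene copies. On an oligonucleotide array a strain difference can also be read where a variant lies under the probes, or where a probe set sees only some of the transcript forms of a gene. For this reason the probe sets of a gene that were bright enough to test were compared here, and not only the brightest one. Counts by gene and by gene list use the brightest set alone.

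The arrays were alike in scale and carried the RNA of a secretory gland. Their median signals lay between 518.5 and 550.0, and log2 signals correlated at 0.954 to 0.970 between B6 arrays, at 0.968 between the 129/Sv arrays and at 0.931 to 0.939 across strains. The ratio of 3' to 5' control probe sets overlapped for Actb, at 2.62 to 2.87 in 129/Sv and 2.59 to 2.90 in B6. For Gapdh it was 0.966 to 1.13 in 129/Sv and 1.13 to 1.18 in B6. The odorant-binding protein gene Obp1a reached 138653 and 120391 on the 129/Sv arrays and 134209, 141431, 150146 and 149696 on the B6 arrays. Obp2a had 162223 and 131961 in 129/Sv and 149537, 156346, 177173 and 164262 in B6. These are among the brightest signals of the table and the strains overlapped in both, with log2 differences of 0.15 (SE 0.10, adjusted p = 0.476) and 0.14 (SE 0.11, adjusted p = 0.564).

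Between the strains, 653 of the 12575 probe sets tested differed at an adjusted p under 0.05 in limma (5.19%), of which 367 were higher in B6 (2.92%) and 286 were higher in 129/Sv (2.27%). Values are given as differences of log2(signal + 16), B6 minus 129/Sv, so that a positive value is higher in B6. This scale understates the change of dim probe sets. The median of the 653 absolute differences was 0.88, a 1.84-fold change, and the median over all probe sets tested was -0.01. A change of at least 2-fold was found for 272 of them (2.16% of those tested), 163 higher in B6 (1.3%) and 109 higher in 129/Sv (0.867%). More than 8-fold changes numbered 16 in each direction. In 652 of the 653 the B6 and 129/Sv arrays did not overlap, whereas 25.1% of all probe sets tested showed no overlap. Counted by gene, with the brightest probe set of each, 396 of 7487 genes differed (5.29%), 214 of them higher in B6 (2.86%) and 182 higher in 129/Sv (2.43%). Left without 129/Sv array 1 or array 2, the count of probe sets fell to 342 and 341, and 202 were called whichever of the 9 arrays was left out, 125 higher in B6 and 77 higher in 129/Sv.

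**Figure D1:**
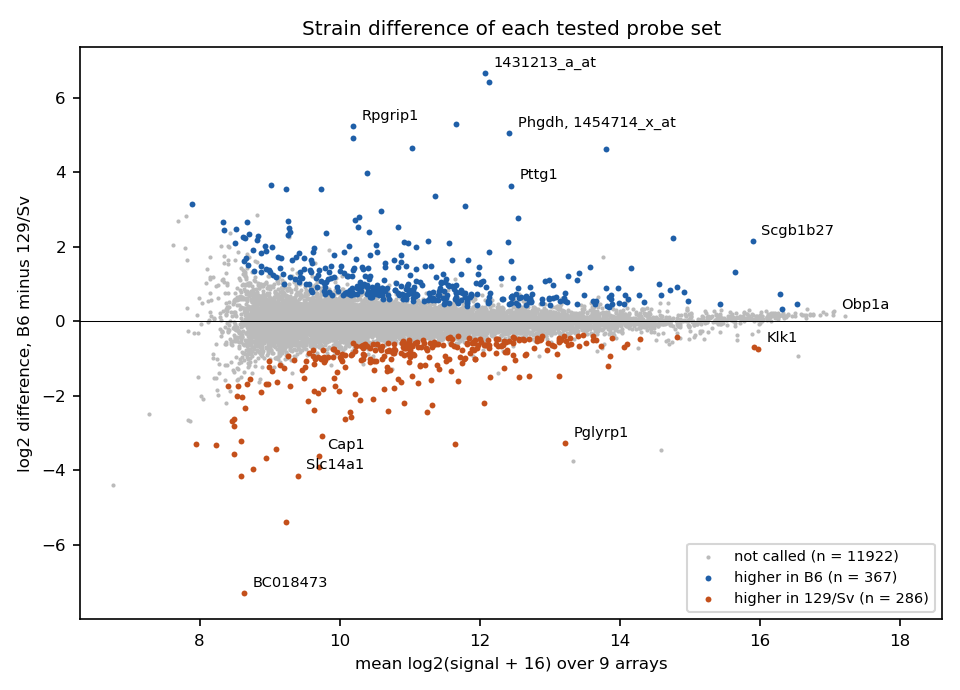
Strain difference of each of the 12575 probe sets tested, log2 of B6 minus 129/Sv, against the mean log2(signal + 16) over the 9 arrays. Blue points are the 367 called higher in B6, orange points the 286 called higher in 129/Sv and grey points those not called, and differences of more than 4 on the log2 axis appear in both directions while Obp1a, among the brightest, lies near 0.

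Among the genes that were higher in 129/Sv by the largest amount, some were dim and some bright on the B6 arrays. BC018473 had signals of 4671 and 14888 in 129/Sv and 29.0, 56.8, 33.2 and 34.2 in B6. Every B6 array lay at the dim end of the table while the 129/Sv arrays were both bright but far from each other, and the difference was -7.29 (SE 0.45, adjusted p = 2.37e-07). It was -8.13 without 129/Sv array 1 and -6.46 without 129/Sv array 2. Its other probe set was dim in both strains, at 30.9 and 29.8 in 129/Sv and 39.7, 28.5, 31.6 and 55.2 in B6, and was not tested. Serpina3n, an inhibitor of serine proteases, had signals of 2910.3 and 2663 in 129/Sv and 109, 71.0, 218 and 470.2 in B6. The 129/Sv arrays were close together and well above every B6 array, with a difference of -3.90 (SE 0.48, adjusted p = 1.90e-04). Pglyrp1, a peptidoglycan recognition protein that acts against bacteria, was a bright gene in both strains, with 29737 and 25578 in 129/Sv and 3205, 2673, 2635 and 2984 in B6. Its strains were separated by a wide gap, and its difference of -3.26 (SE 0.12, adjusted p = 1.18e-09), a 9.58-fold change, had one of the smallest errors among these genes.

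Others of the 10 largest 129/Sv-high genes had wider spread. Mucl2, named as a mucin-like gene, had 13049.5 and 1057 in 129/Sv and 161, 491, 239.9 and 608 in B6. The 129/Sv arrays were far apart and the lower of them was close to the highest B6 array, so the difference of -3.44 (SE 0.74, adjusted p = 0.0126) rested mostly on 129/Sv array 1. Gch1, which starts tetrahydrobiopterin synthesis, had 994 and 1665 in 129/Sv and 229.5, 105, 26.3 and 208 in B6, a difference of -3.33 (SE 0.67, adjusted p = 0.00902). Tmem87a, a membrane protein, had 1799 and 1929 in 129/Sv and 299.5, 496, 31.1 and 69.6 in B6, a difference of -3.56 (SE 0.85, adjusted p = 0.0246). In both genes the B6 arrays were scattered and lay below both 129/Sv arrays, which were close together in Tmem87a and farther apart in Gch1. The call of Tmem87a was lost without either 129/Sv array (adjusted p up to 0.197), and that of Mucl2 without 129/Sv array 1 (adjusted p = 0.301). Mucl2 differed by -1.63 without that array and by -5.24 without 129/Sv array 2, and Tmem87a by -2.97 without B6 array 3.

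Among the genes that were higher in B6 by the largest amount, Rpgrip1 was dim on the 129/Sv arrays, while Pttg1 and Ghitm, described further on, were above the median signal of the arrays there. Rpgrip1, a protein of the cilium that binds the retinitis pigmentosa GTPase regulator, had 158 and 29.0 in 129/Sv and 3515, 3174, 3351 and 3153 in B6. The B6 arrays were tightly grouped and far above both 129/Sv arrays, and the difference was 5.22 (SE 0.37, adjusted p = 9.03e-07). Only this probe set of the gene was bright enough to test, and the other 3 reached at most 213 on any of the 6 arrays. Rab6b, a small GTPase of Golgi transport, had 34.0 and 202 in 129/Sv and 1085, 1278, 1303 and 1149 in B6, a difference of 3.54 (SE 0.42, adjusted p = 1.27e-04). Ahi1, a protein of the base of the cilium, had 58.7 and 189 in 129/Sv and 703, 459.8, 649 and 651 in B6, a difference of 2.33 (SE 0.42, adjusted p = 0.00375). The B6 arrays of both genes lay above both 129/Sv arrays by a clear margin, and these calls held whichever array was left out. Their size depended on the 129/Sv array kept, with Rpgrip1 at 6.20 and 4.25 and Ahi1 at 1.61 and 3.06 without 129/Sv arrays 1 and 2. Rab6b was at 2.48 without 129/Sv array 1 and above its full value without array 2.

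Sdc2, a cell-surface heparan sulfate proteoglycan, differed by 2.39 (SE 0.47, adjusted p = 0.00762) and Sult1d1, a cytosolic sulfotransferase, by 2.44 (SE 0.52, adjusted p = 0.0124). Sftpc, surfactant protein C, had 12.4 and 231 in 129/Sv and 689, 524, 505 and 367 in B6, a difference of 2.65 (SE 0.63, adjusted p = 0.0233). All B6 arrays were above both 129/Sv arrays. Both 129/Sv signals were below the array medians, and of the B6 signals only that of array 1 was above the highest array median. Without 129/Sv array 1 the calls of Sdc2, Sult1d1 and Sftpc were lost, with adjusted p up to 0.137, 0.122 and 0.191 over the single arrays left out. The call of Sftpc was also lost without B6 array 2 or 3. Without 129/Sv arrays 1 and 2, Sdc2 differed by 1.47 and 3.31 and Sftpc by 1.09 and 4.21.

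**Figure D2:**
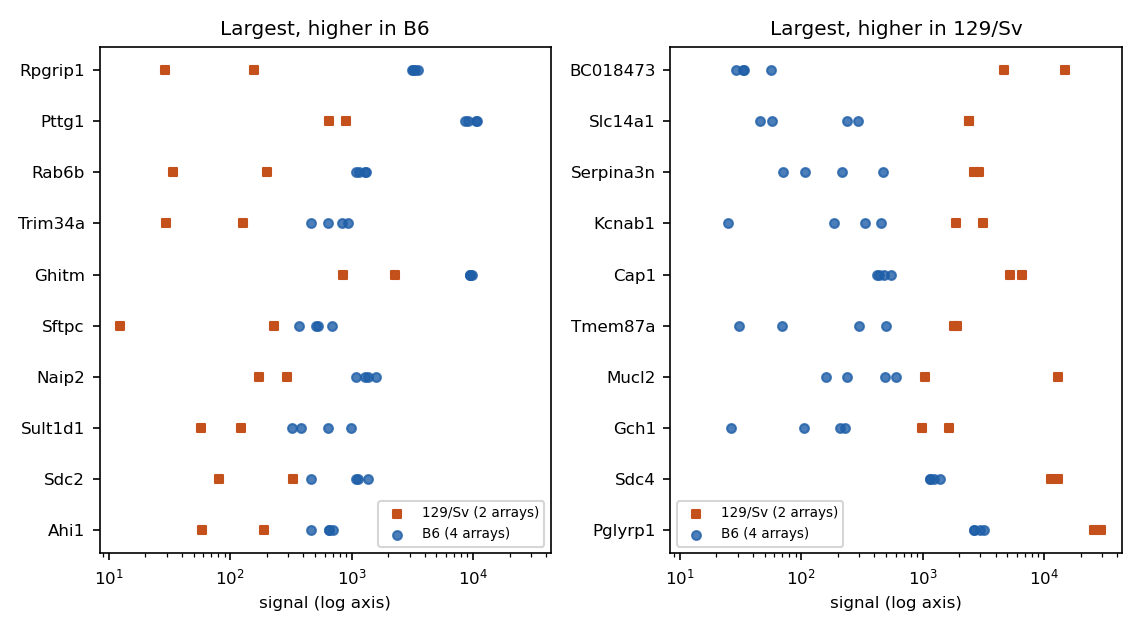
Signal on each wild-type array, on a log axis, for the 10 genes with the largest called difference in each direction. They were picked among called genes whose strains do not overlap, so the absence of overlap was a condition of the choice. Squares are the 2 129/Sv arrays and circles the 4 B6 arrays, with Pttg1, Cap1, Sdc4 and Pglyrp1 showing the tightest groups.

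Where a gene had more than 1 probe set, the comparison could be made again with other probes. Of the 2749 genes with at least 2 probe sets tested, 262 had at least 1 called. In 41 of these all tested probe sets were called in the same direction, 21 higher in B6 and 20 higher in 129/Sv. In another 107 the remaining probe sets had the same sign without all being called, in 106 another probe set had the opposite sign or under 0.25 of the difference, and in 8 probe sets were called in both directions. The 106 comprised 75 genes called higher in B6 and 31 called higher in 129/Sv, beside 51 and 56 among the 107.

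The largest differences seen by every tested probe set were those of Slc14a1, Cap1, Pttg1, Kcnab1, Mpzl2 and Kctd14. Slc14a1, a urea transporter, had 2409 and 2405 in 129/Sv and 57.7, 45.6, 295 and 238 in B6 on its brighter set, and 3150.1 and 3368 in 129/Sv on the other, which had 115, 32.7 and 154 on B6 arrays 1, 2 and 4 and was dimmer still on B6 array 3. Both sets showed bright 129/Sv arrays that agreed closely and dim, scattered B6 arrays, with differences of -4.14 (SE 0.53, adjusted p = 2.33e-04) and -5.38 (SE 0.50, adjusted p = 1.29e-05). Cap1, a cyclase-associated protein that turns over actin filaments, had 6621 and 5271 in 129/Sv and 424, 479, 441 and 550.0 in B6, and its other set 3672 and 3899.7 in 129/Sv and 249, 159, 237 and 164 in B6. The differences were -3.60 (SE 0.20, adjusted p = 6.73e-08) and -4.15 (SE 0.37, adjusted p = 8.15e-06), and the arrays of each strain lay close together in both sets.

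Pttg1, which encodes securin, the inhibitor of sister chromatid separation, had 3 probe sets and all were higher in B6. The brightest had 653 and 897 in 129/Sv and 10724, 8629, 9089.7 and 10545 in B6, a difference of 3.64 (SE 0.14, adjusted p = 1.29e-09). The others differed by 3.98 (SE 0.27, adjusted p = 7.12e-07) and 2.66 (SE 0.49, adjusted p = 0.00447). No B6 array of any of the 3 sets overlapped a 129/Sv array. Of 19 other cell cycle genes tested, 1 was called (5.26%), a share near the 5.29% of all genes. It was Ccnd1, which encodes cyclin D1, at 0.74 (SE 0.18, adjusted p = 0.0292). Ccnd1 was higher in B6 by all 3 of its probe sets, and its call was lost without 129/Sv array 1, 129/Sv array 2, B6 array 2 or B6 array 4 (adjusted p up to 0.268). The calls of its other sets were also lost without 4 and 6 of the 9 single arrays (adjusted p up to 0.422 and 0.455). Pttg1 itself was listed among genes with known strain alleles and not among these 19.

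Kcnab1, a beta subunit of voltage-gated potassium channels, had 1881 and 3141 in 129/Sv and 186, 24.9, 333 and 451 in B6, with differences of -3.67 (SE 0.73, adjusted p = 0.00784) and -2.33 (SE 0.57, adjusted p = 0.0284) for its 2 probe sets. Mpzl2, an adhesion protein of epithelia, had 3 probe sets that differed by -2.18 (SE 0.27, adjusted p = 1.61e-04), -2.43 (SE 0.37, adjusted p = 0.00104) and -2.09 (SE 0.17, adjusted p = 4.22e-06). Kctd14 was higher in B6, at 901 and 639.7 in 129/Sv and 2783, 3804, 3029.8 and 3261 in B6, and its 2 probe sets differed by 2.05 (SE 0.20, adjusted p = 1.62e-05) and 2.70 (SE 0.23, adjusted p = 4.39e-06). In all 3 genes the strains did not overlap on the sets given. The calls of Kcnab1 on both sets were lost without either 129/Sv array (adjusted p up to 0.126 and 0.279), and the brighter set differed by -2.93 without B6 array 2.

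Further genes of the 41 were seen by 3 or 4 probe sets. Gas5, a non-coding RNA that hosts small nucleolar RNAs, was higher in B6 by 1.30 to 2.40 over 4 sets. Serinc3, a membrane protein, was higher in B6 by 0.92 to 1.44 over 4 sets, and Hspb8, a small heat shock protein, by 1.35 to 1.79 over 3. Glo1, which detoxifies methylglyoxal, and Acsl4, which activates long-chain fatty acids, were higher in 129/Sv by all 3 of their sets. Glo1 differed by -1.46, -1.30 and -1.12, and Acsl4 by -1.52, -1.23 and -0.96. All of these sets were called whichever array was left out, except 1 set of Acsl4, 1 of Serinc3 and 2 of Hspb8, which were lost without 129/Sv array 1 among others (adjusted p up to 0.241, 0.173 and 0.177).

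In other genes 1 probe set showed a strain difference that the rest of the gene did not. The difference between the brightest and each other probe set was fitted as a value of its own for 4116 pairs, and 59 pairs in 52 genes differed at an adjusted p under 0.05 in limma (1.43%). In 40 of the 59 the pair had opposite signs, and in 38 the dimmer set held the larger change. The larger change was higher in B6 in 44 pairs and higher in 129/Sv in 15. Among the 264 pairs in which exactly 1 set was called, the difference between the sets was called in 49 and missed the threshold in 215, so that a call on 1 set alone was mostly not shown to differ from its partner. When both sets of a pair were called, 66 of 72 pairs had the same direction. The count of called pairs was 28 without 129/Sv array 1 and 36 without 129/Sv array 2, and 20 pairs were called whichever array was left out.

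Phgdh, which starts serine synthesis, had the widest gap. One dimmer probe set had 518 and 246 in 129/Sv and 10586, 13607, 12493 and 12741 in B6, a difference of 5.04 (SE 0.20, adjusted p = 1.85e-09). The brightest set had 12168 and 11517 in 129/Sv and 10708, 11482, 8767 and 11436 in B6, a difference of -0.17 (SE 0.13, adjusted p = 0.587). The strains were far apart on the first and nearly met on the second, and the gap between the sets was -5.21 (SE 0.26, adjusted p = 1.25e-05). The other tested sets annotated to Phgdh alone differed by 0.38 and 0.10 and were not called. A set annotated to both Phgdh and Gm6756 was also higher in B6, by 3.37 (SE 0.15, adjusted p = 7.53e-09). Names ending in x_at mark sets whose probes can also match other transcripts, so which RNA such a set reports is uncertain.

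Rps9, a protein of the small ribosomal subunit, repeated this form. One of its dimmer sets had 759 and 379 in 129/Sv and 14096, 13856, 15395 and 12642 in B6, while the brightest set had 49245 and 41977 in 129/Sv and 46440.3, 43049.8, 42371 and 40829.6 in B6. The strains overlapped on the brightest set, at -0.08 (SE 0.09, adjusted p = 0.731), and the gap between the sets was -4.74 (SE 0.35, adjusted p = 2.75e-04). Riok3, an atypical protein kinase, was called in opposite directions by its 2 dimmer sets, at 3.08 (SE 0.13, adjusted p = 1.85e-09) and -0.63 (SE 0.10, adjusted p = 0.00166), while its brightest set differed by -0.22 and was not called. Psmd6, a subunit of the proteasome cap, had 567 and 491 in 129/Sv and 3799, 4293, 4375 and 4486 in B6 on 1 set, and 6981 and 8122 in 129/Sv and 6975, 7928, 6797 and 7996 in B6 on the brighter one. The strains were apart on the former and overlapped on the latter, with a gap of -2.99 (SE 0.47, adjusted p = 0.0130) that was lost without either 129/Sv array (adjusted p up to 0.133).

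Prdx2, a peroxide-reducing enzyme, and Norad, a long non-coding RNA that binds Pumilio proteins, also had a dim set that was higher in B6 beside a bright set that was not called. The dim sets differed by 3.55 (SE 0.48, adjusted p = 4.16e-04) in Prdx2 and 3.66 (SE 0.59, adjusted p = 0.00190) in Norad, and the bright sets by 0.04 and 0.23. Without 129/Sv arrays 1 and 2, the dim set of Prdx2 differed by 4.87 and 2.23 and that of Norad by 5.23 and 2.09. Ghitm, a protein of the inner mitochondrial membrane, was among the 10 largest B6-high genes by its brightest set, with 2272 and 857 in 129/Sv and 9469, 9518, 9466 and 9773 in B6. It differed by 3.46 and 2.06 without 129/Sv arrays 1 and 2. The other set had 4517 and 3124 in 129/Sv and 5343, 5217, 5119 and 4881 in B6. That set showed a difference of 0.45 (SE 0.13, adjusted p = 0.0692), short of the threshold, and the gap of 2.31 (SE 0.21, adjusted p = 6.21e-04) between them was called. Of 5 tested sets of Vamp3, a vesicle fusion protein, the brightest differed by 1.85 and the other 4 by 0.07 to 0.21, and each of the 4 gaps was called, 2 of them whichever array was left out. The gap of Norad was called in 2 of the 9 fits that left out 1 array (adjusted p up to 0.0921), and those of the other 2 Vamp3 sets were lost without either 129/Sv array, 1 of them also without 5 other arrays (adjusted p up to 0.122 and 0.271).

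Some genes had sets that pointed in opposite directions. Sdc4, a heparan sulfate proteoglycan of the cell surface, had 13126 and 11444 in 129/Sv and 1158, 1142, 1397 and 1233 in B6 on its brighter set, which places it among the 10 largest 129/Sv-high genes. On its other set it had 729 and 554 in 129/Sv and 1767, 1610.4, 2029 and 1645 in B6. The first set was lower on every B6 array and the second higher on every B6 array, with differences of -3.30 (SE 0.24, adjusted p = 1.60e-06) and 1.44 (SE 0.19, adjusted p = 4.03e-04) and a gap of -4.74 (SE 0.41, adjusted p = 4.40e-04). Galc, a lysosomal galactosylceramidase, differed by 1.99 (SE 0.37, adjusted p = 0.00470) on one set and by -1.97 (SE 0.55, adjusted p = 0.0581) on the other, of which the first was called. Leaving out 129/Sv array 2 ended that call, at 1.30 (adjusted p = 0.0777), and without 129/Sv array 1 the difference was 2.68. The gap between them was 3.96 (SE 0.56, adjusted p = 0.00843), lost without the same array (adjusted p = 0.0981). Ndufa12, a subunit of respiratory complex I, was called in both directions, at 1.10 and 0.55 on 2 sets and -0.45 on another. The calls of the last 2 sets were lost without either 129/Sv array, and each also without 1 B6 array (adjusted p up to 0.169 and 0.198). For such genes no single direction of the RNA can be read from these arrays.

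**Figure D3:**
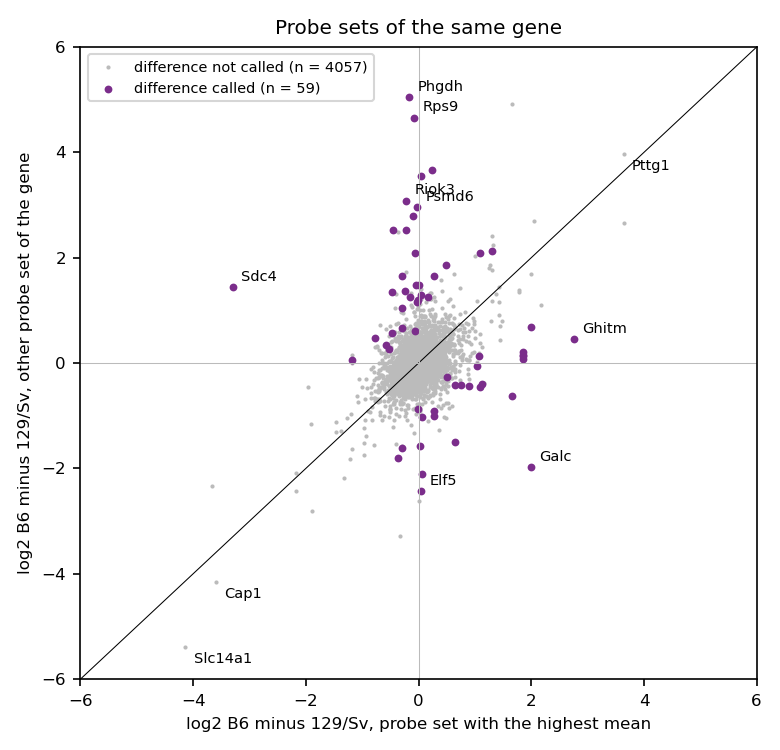
Log2 difference, B6 minus 129/Sv, of the brightest probe set of each gene (horizontal) and of each of its other tested probe sets (vertical), for 4116 pairs. The diagonal marks equal differences, purple points are the 59 pairs whose difference was called, many of which lie on the vertical line at 0, and Slc14a1, Cap1 and Pttg1 lie near the diagonal.

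Secretoglobin and kallikrein genes, which lie apart from each other on chromosome 7, were called in opposite directions. Lists of genes are described from here on by their counts, with the share called to be read beside the 5.29% called over all genes tested. The secretoglobins, small secreted proteins that form the androgen-binding protein dimers of mouse saliva and nasal secretions, had 3 members bright enough to test. All 3 members tested of 23 listed were called higher in B6, with a median of 2.15 beside -0.01 for all genes. Scgb1b27, an alpha chain, had 18404 and 15679.6 in 129/Sv and 58361, 79721, 72756 and 96367 in B6, a difference of 2.15 (SE 0.16, adjusted p = 1.67e-06). Its partner-type beta chain Scgb2b27 had 19196 and 23335 in 129/Sv and 35272, 52039, 59237 and 73594 in B6, a difference of 1.33 (SE 0.22, adjusted p = 0.00211). Scgb1b2 was far dimmer, at 959 and 544 in 129/Sv and 3920.3, 2805, 3501 and 2927 in B6, with a difference of 2.15 (SE 0.21, adjusted p = 2.16e-05). In each of the 3 every B6 array was above both 129/Sv arrays, and all 3 were called whichever array was left out and under quantile normalization or equal array medians.

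The glandular kallikreins are serine proteases of secretory glands that cleave peptide precursors. Of 5 tested members of that list, which also holds the kallikrein substrate Egf, 4 were called higher in 129/Sv and 0 higher in B6 (80%), with a median of -1.18. Klk1 was bright, at 84233 and 80098 in 129/Sv and 40768, 40803, 58538 and 61402 in B6, and differed by -0.73 (SE 0.17, adjusted p = 0.0205). A second set of Klk1 agreed in sign at -0.69 (SE 0.16, adjusted p = 0.0210), while another set, at 3722 and 4927 in 129/Sv and 4725, 4787, 4959 and 6992 in B6, went the other way by 0.30 and was not called. Klk1b11 had 2615 and 3660.3 in 129/Sv and 1062, 1005, 956 and 1191 in B6, a difference of -1.54 (SE 0.18, adjusted p = 1.13e-04). Klk1b21 differed by -1.18 (SE 0.29, adjusted p = 0.0297) and Klk1b5 by -1.90 (SE 0.38, adjusted p = 0.00866), with a second Klk1b5 set at -2.81 that was called in 3 of the 9 fits that left out 1 array (adjusted p up to 0.290). In all 4 genes the 129/Sv arrays were above every B6 array, whereas Egf differed by 0.15 (adjusted p = 0.525). Of the 10 members of this list on the array, 5 passed the filter on low signals. Among the wild-type arrays, Klk1b5 and Klk1b21 were above the array median on 129/Sv arrays alone, the strain in which they are high. The share called, its direction and the median therefore depend in part on the filter.

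The kallikrein copies are close in sequence, so a probe set can read RNA of a neighbouring copy, and sets annotated to several copies moved the same way. The set shared by Klk1b26 and Egfbp2 differed by -3.96 (SE 0.46, adjusted p = 1.16e-04) and the set shared by Klk1b9 and Klk1b22 by -2.25 (SE 0.51, adjusted p = 0.0191), the latter lost without either 129/Sv array or B6 array 2 (adjusted p up to 0.194). Left without single arrays, 1 to 4 of the kallikreins were called, with Klk1b11 called each time. The calls of Klk1, on both of its called sets, were lost without either 129/Sv array or B6 array 2 (adjusted p up to 0.152), those of Klk1b21 without either 129/Sv array or B6 array 4 (adjusted p up to 0.342), and that of Klk1b5 without either 129/Sv array (adjusted p up to 0.148).

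Upstream sequences of some of these genes are shown for the letters that the copies share. They are the 250 bases before the annotated start from RefSeq, build GRCm38.p6, which is a C57BL/6J sequence, so they do not show the 129/Sv alleles. Capitals mark the longest runs of letters shared by Klk1b5 (chr7:44216224-44216473), Klk1b11 (chr7:43995627-43995876) and Klk1b21 (chr7:44102042-44102291), all on the plus strand, and by Scgb1b2 (chr7:31291817-31292066, minus strand) and Scgb1b27 (chr7:34021231-34021480, plus strand).
Klk1b5: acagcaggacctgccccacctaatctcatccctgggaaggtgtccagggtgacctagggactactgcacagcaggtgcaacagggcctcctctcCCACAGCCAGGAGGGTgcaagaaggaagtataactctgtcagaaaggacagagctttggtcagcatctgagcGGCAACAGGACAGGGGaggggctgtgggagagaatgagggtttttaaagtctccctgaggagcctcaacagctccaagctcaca
Klk1b11: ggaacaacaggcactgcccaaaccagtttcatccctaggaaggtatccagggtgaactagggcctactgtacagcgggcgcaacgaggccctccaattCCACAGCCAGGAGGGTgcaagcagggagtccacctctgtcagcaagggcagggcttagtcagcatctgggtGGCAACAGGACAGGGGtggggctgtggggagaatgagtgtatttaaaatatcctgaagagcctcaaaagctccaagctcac
Klk1b21: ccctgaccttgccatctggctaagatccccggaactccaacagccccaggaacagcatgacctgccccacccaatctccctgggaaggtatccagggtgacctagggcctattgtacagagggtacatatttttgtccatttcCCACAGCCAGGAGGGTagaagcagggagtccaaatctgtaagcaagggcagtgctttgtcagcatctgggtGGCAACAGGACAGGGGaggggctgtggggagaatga
Scgb1b2: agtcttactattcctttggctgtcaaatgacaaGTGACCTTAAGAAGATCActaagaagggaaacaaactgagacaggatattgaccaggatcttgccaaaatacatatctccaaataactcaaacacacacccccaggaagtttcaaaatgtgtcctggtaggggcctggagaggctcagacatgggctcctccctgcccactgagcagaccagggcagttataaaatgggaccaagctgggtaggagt
Scgb1b27: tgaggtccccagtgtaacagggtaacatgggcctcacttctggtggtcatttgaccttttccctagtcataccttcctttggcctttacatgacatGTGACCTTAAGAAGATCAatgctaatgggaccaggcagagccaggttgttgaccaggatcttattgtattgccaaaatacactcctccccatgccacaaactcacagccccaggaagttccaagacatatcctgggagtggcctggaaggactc
Among the kallikreins 2 runs of 16 bases tied as the longest. The run CCACAGCCAGGAGGGT begins 156, 152 and 107 bases before the starts of Klk1b5, Klk1b11 and Klk1b21. Searched on both strands, it was found in 8 of 32851 promoters of the same length (0.0244%), all of them kallikrein genes of this family. The run GGCAACAGGACAGGGG begins 84, 81 and 36 bases before the same starts and was found in 6 promoters (0.0183%), also all kallikrein genes of the family. The secretoglobin run GTGACCTTAAGAAGATCA spans 18 bases, begins 217 and 154 bases before the starts of Scgb1b2 and Scgb1b27, and was found in 3 promoters (0.00913%), the other being that of Scgb1b30. Klk1 and Scgb2b27, which were also called, hold none of these runs letter for letter in the same window. The exact runs are thus not shared by all the called genes, and the sequences of Klk1 and Scgb2b27 are not printed. Klk1 does hold ccacagccatgagggt, a form of the first kallikrein run in which a t stands for a g. The genes compared were chosen after their sequences were seen. These matches describe shared letters in the reference strain and were not tied to the strain difference.

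**Figure D4:**
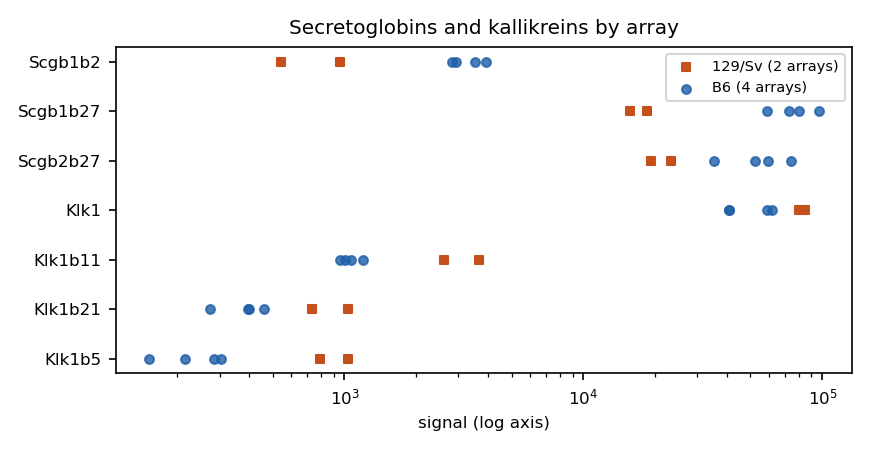
Signal on each wild-type array, on a log axis, for the 3 secretoglobins and 4 kallikreins called. Circles (4 B6 arrays) lie to the right of squares (2 129/Sv arrays) for the secretoglobins and to the left for the kallikreins, with no overlap in any of the 7 genes.

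Among the other secreted proteins of the gland, the odorant-binding lipocalins did not pass the test. Of 6 tested, 0 were called by limma in either direction, with a median of 0.07, and the largest absolute difference was that of Mup5, a major urinary protein, at -0.94 (adjusted p = 0.452). Of 24 tested proteins of mucosal defence and glandular secretion, 4 were called higher in B6 and 2 higher in 129/Sv (25%), with a median of 0.23, and without 129/Sv array 1 the counts were 2 and 1. Azgp1, a secreted zinc-binding glycoprotein, had 1760.3 and 2096 in 129/Sv and 5265, 4564, 3378 and 3093 in B6, a difference of 1.04 (SE 0.21, adjusted p = 0.00880). Reg3g, an antibacterial lectin, differed by 0.55 (adjusted p = 0.00606) and Agr2, an endoplasmic reticulum protein needed for mucin folding, by 0.71 (SE 0.18, adjusted p = 0.0392), with its other set at 0.44 and not called. Csn3, kappa casein, was higher in 129/Sv, at 28769 and 20862 in 129/Sv and 13172, 8283, 9766 and 11989.5 in B6, a difference of -1.20 (SE 0.17, adjusted p = 6.61e-04), and Lyz2, lysozyme, by -0.42 (SE 0.11, adjusted p = 0.0343). Every one of these B6 arrays was on one side of both 129/Sv arrays. The calls of Agr2 and Lyz2 were lost without 129/Sv array 1 or several other single arrays (adjusted p up to 0.459 and 0.364), that of Azgp1 without 129/Sv array 1 (adjusted p = 0.122) and that of Reg3g without 129/Sv array 2 (adjusted p = 0.0783). Car6, a secreted carbonic anhydrase, had a difference of -3.75 that missed the threshold (adjusted p = 0.0593).

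Enzymes that act on foreign compounds were called in both directions. Of 18 tested members of the cytochrome P450 system, 0 were called higher in B6 and 2 higher in 129/Sv (11.1%), with a median of -0.19, and 1 was called without either 129/Sv array or B6 array 3. Cyp2b19 had 9401 and 9368 in 129/Sv and 4193, 2161, 4059.8 and 3222 in B6, a difference of -1.50 (SE 0.20, adjusted p = 4.14e-04), with both 129/Sv arrays above every B6 array. Cyp4a12a, a fatty acid hydroxylase, differed by -0.91 (SE 0.23, adjusted p = 0.0312), a call lost without either 129/Sv array or B6 array 2 or 3 (adjusted p up to 0.358). Cyp2g1, an olfactory P450 and the gene deleted in the null line, had 208 and 981 in 129/Sv and 5917, 748, 2007 and 2799 in B6. The strains overlapped and B6 array 1 was far above the others, and the difference of 2.26 (SE 0.70, adjusted p = 0.0886) was not called. It was 1.18 and 3.33 without 129/Sv arrays 1 and 2 (adjusted p = 0.607 and 0.0507), and it was called without B6 array 2, at 2.78 (adjusted p = 0.0222).

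Of 30 tested enzymes of alcohol, aldehyde and carbonyl metabolism, 3 were called higher in B6 and 1 higher in 129/Sv (13.3%), with a median of -0.03, and 2 were called without either 129/Sv array. Aldh2, the mitochondrial acetaldehyde dehydrogenase, had 9967 and 10017 in 129/Sv and 18708, 15866, 19482 and 19987 in B6, a difference of 0.88 (SE 0.11, adjusted p = 1.27e-04). The 129/Sv arrays agreed closely and lay below every B6 array, but the dimmer Aldh2 sets differed by 0.51 and -0.20 and were not called. Adh7, a retinol and alcohol dehydrogenase, differed by 0.88 (SE 0.19, adjusted p = 0.0119) on its brighter set and by -0.11 on the other, which was not called (adjusted p = 0.893), and Adh1 by 0.64 (SE 0.15, adjusted p = 0.0251), while Aox3, an aldehyde oxidase, was higher in 129/Sv at -0.77 (SE 0.14, adjusted p = 0.00544). The calls of Adh7 and Adh1 were lost without 129/Sv array 1, that of Adh1 also without 129/Sv array 2 or B6 array 4, and that of Aox3 without 129/Sv array 2 (adjusted p up to 0.192, 0.262 and 0.107).

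Of 37 tested genes of glutathione, sulfo- and glucuronosyl transfer, 3 were called higher in B6 and 5 higher in 129/Sv (21.6%), with a median of -0.07. Without 129/Sv array 1 and array 2 the count called was 5 and 4. Mgst1, a microsomal glutathione transferase, had 17125 and 15063 in 129/Sv and 6380.1, 5267, 5814 and 5765 in B6, a difference of -1.47 (SE 0.11, adjusted p = 2.90e-06). Glo1 had 12175 and 11222 in 129/Sv and 4967, 4272, 3947 and 3883 in B6 on its brightest set, a difference of -1.46 (SE 0.12, adjusted p = 3.39e-06). Both strains were tightly grouped and well apart in both genes. Gstt2, Papss1, which makes the sulfate donor, and Ugp2, which makes UDP-glucose, were also higher in 129/Sv, at -0.88, -0.65 and -0.42, while the other 3 tested sets of Ugp2 differed by -0.24 to -0.22 and were not called. Gsto1, an omega-class transferase, was higher in B6 by both of its sets, at 0.99 (SE 0.12, adjusted p = 1.97e-04) and 0.80 (SE 0.18, adjusted p = 0.0174), and the extracellular peroxidase Gpx3 by 0.62 (adjusted p = 0.00293). Without 129/Sv array 2 the calls of Gstt2, Papss1, Ugp2, Gpx3 and the second Gsto1 set were lost, and those of Gstt2, Ugp2 and that Gsto1 set also without 129/Sv array 1 (adjusted p up to 0.139, 0.051, 0.238, 0.0528 and 0.184). The call of Ugp2 held in 2 of the 9 fits, being lost also without B6 array 3 or 4 or any of the null arrays.

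In the lists of antiviral and innate immune genes the called members were higher in B6. Of 24 tested interferon-stimulated genes, 3 were called higher in B6 and 0 higher in 129/Sv (12.5%), and 20 had a positive difference, with a median of 0.33 beside -0.01 for all genes. Oas1a, which makes oligoadenylates on sensing double-stranded RNA, had 212 and 259 in 129/Sv and 669, 703, 706 and 572 in B6, a difference of 1.43 (SE 0.28, adjusted p = 0.00661). Rsad2, viperin, differed by 1.39 (SE 0.32, adjusted p = 0.0200). Trim25, a ubiquitin ligase of RNA sensing, differed by 0.82 (SE 0.14, adjusted p = 0.00241) and had an uncalled set at 0.97 and a second called set at 0.59, lost without either 129/Sv array or B6 array 2 or 3 (adjusted p up to 0.275). The strains did not overlap in these 3 genes. Of the 44 members of this list on the array, 24 passed the filter on low signals. Among the wild-type arrays, Oas1a and Rsad2 were above the array median on B6 arrays alone, the strain in which they are high. The share called, its direction and the median of this list therefore depend in part on the filter. Irf7, Bst2 and Oasl2 had differences of 1.01, 1.12 and 1.00 that missed the threshold (adjusted p of 0.195, 0.161 and 0.284). Leaving out 129/Sv array 1 ended the call of Oas1a (adjusted p = 0.0716), and that of Rsad2 was lost without 129/Sv array 2, B6 array 3 or B6 array 4 (adjusted p up to 0.247).

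Of 7 tested innate receptors and Trim genes that vary between strains, 3 were called higher in B6 and 0 higher in 129/Sv (42.9%), with a median of 0.56. Without B6 array 3 the count was 1, and without 129/Sv array 2 the median was 0.09. Naip2, an inflammasome sensor of bacterial secretion proteins, had 292 and 173 in 129/Sv and 1297, 1082, 1591 and 1377 in B6, a difference of 2.47 (SE 0.57, adjusted p = 0.0211). Trim34a, an interferon-inducible Trim protein, had 29.9 and 127 in 129/Sv and 933, 642, 827 and 464 in B6, a difference of 3.13 (SE 0.73, adjusted p = 0.0223). Its other set, too dim to test, went the other way, at 224 and 212 in 129/Sv and 46.4, 64.1, 31.9 and 42.7 in B6. Apobec3, a cytidine deaminase that restricts retroviruses, differed by 0.72 (SE 0.15, adjusted p = 0.0110). Without 129/Sv array 1 all 3 calls were lost, and those of Naip2 and Trim34a also without other single arrays (adjusted p up to 0.201, 0.174 and 0.149). Trim34a differed by 2.31 and 3.95 without 129/Sv arrays 1 and 2. Copies of Naip and Trim34 genes are near identical, so these sets may read more than 1 copy. Of the 33 members of this list on the array, 7 passed the filter on low signals. Naip2 and Trim34a passed it on B6 arrays alone, the strain in which they are high. The share called, its direction and the median of this list therefore depend in part on the filter.

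Of 19 tested genes of antigen presentation, 0 were called higher in B6 and 2 higher in 129/Sv (10.5%), with a median of -0.09, and the count was 0 to 3 without single arrays, with 3 without B6 array 1. The genes called over all arrays were H2-Ab1, a class II chain, at -0.65 (SE 0.17, adjusted p = 0.0459), and H2-D1, a class I chain, at -0.37 (SE 0.09, adjusted p = 0.0355). Both are polymorphic between strains, and a second set of H2-D1 was also called, at -0.49 (SE 0.09, adjusted p = 0.00401), except without 129/Sv array 1 (adjusted p = 0.0556). The remaining tested sets of both genes were not called, the largest difference among them being -0.41. The calls of the first sets each held in 2 of the 9 fits that left out 1 array (adjusted p up to 0.279 and 0.254).

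A list of genes with known alleles among laboratory strains had 19 members tested, of which 3 were called higher in B6 and 3 higher in 129/Sv (31.6%), with a median of -0.09. Beside Pttg1, Cap1 and Glo1 they were Alad, Nnt and Erdr1. Alad, an enzyme of haem synthesis that is duplicated in some strains, had 4442 and 4607 in 129/Sv and 1759, 1648, 1219 and 1918 in B6, a difference of -1.48 (SE 0.16, adjusted p = 6.24e-05) with no overlap. Nnt, the mitochondrial transhydrogenase, is known to carry a deletion in the C57BL/6J substrain. Its brighter set had 2739.9 and 3039.5 in 129/Sv and 4517, 3914, 4195 and 4109 in B6, higher in B6 by 0.53 (SE 0.11, adjusted p = 0.0102), and its other set differed by 0.36 (SE 0.17, adjusted p = 0.304). Where these probes lie relative to the deletion was not examined, and the call of Nnt needed 129/Sv array 1 (without it, adjusted p = 0.140). Erdr1 was higher in B6 by 0.73 (SE 0.13, adjusted p = 0.00323), also lost without 129/Sv array 1 (adjusted p = 0.0535). This list was drawn from genes known to vary and holds genes seen in earlier results of these arrays, so its count is not independent evidence.

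Of 44 tested cytoplasmic ribosomal protein genes, 4 were called higher in B6 and 0 higher in 129/Sv (9.09%), or 2 without either 129/Sv array, and 40 had a positive difference, with a median of 0.13. Under quantile normalization the median was 0.04 with 33 positive. Rplp0, a stalk protein of the large subunit, had 58318 and 52064 in 129/Sv and 90423, 88011, 97729 and 88940.0 in B6, a difference of 0.73 (SE 0.09, adjusted p = 1.61e-04), and Rps6 had 863 and 709.5 in 129/Sv and 2818, 2283, 2208 and 2347 in B6, a difference of 1.60 (SE 0.15, adjusted p = 1.29e-05). Rpl22 differed by 0.89 (SE 0.21, adjusted p = 0.0205) on one set and 0.05 on the other, and Rps25 by 0.72 (SE 0.19, adjusted p = 0.0423). Of 69 tested respiratory chain genes, 2 were called higher in B6 (2.9%), Ndufs5 at 1.11 (SE 0.10, adjusted p = 1.08e-05) and Ndufa12, whose sets disagreed. The calls of Rpl22 and Rps25 were lost without either 129/Sv array, and that of Rps25 also without 4 other single arrays (adjusted p up to 0.232 and 0.273).

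In the endoplasmic reticulum, where secreted proteins fold, 2 of 44 tested genes were called higher in B6 and 1 higher in 129/Sv (6.82%), with a median of 0.03. Without B6 array 1 the counts were 5 and 1, and without 129/Sv array 1 they were 1 and 0. Ero1b, an oxidase that drives disulfide formation, had 1982 and 2425 in 129/Sv and 4798, 5726, 5249 and 5452 in B6, a difference of 1.27 (SE 0.14, adjusted p = 8.10e-05), and a second set at 1.85 (SE 0.30, adjusted p = 0.00197). Pdia6, a disulfide isomerase, differed by 0.96 (SE 0.16, adjusted p = 0.00247) and Hyou1, an Hsp70-type chaperone, by -0.65 (SE 0.15, adjusted p = 0.0228). Other sets of Hyou1 differed by -1.08 (SE 0.22, adjusted p = 0.00898), a call lost without 129/Sv array 2 (adjusted p = 0.124), and by -0.38, not called. Every B6 array was above both 129/Sv arrays in Ero1b and Pdia6, and below both in Hyou1. The call of Pdia6 was lost without 129/Sv array 1 and that of Hyou1 without either 129/Sv array (adjusted p up to 0.0563 and 0.273).

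In cholesterol and fatty acid synthesis 3 of 25 tested genes were called (12%), or 1 without 129/Sv array 1. Sc5d, a sterol desaturase, was higher in B6 at 0.87 (SE 0.15, adjusted p = 0.00306). Elovl5, a fatty acid elongase, and Stard4, a sterol carrier, were higher in 129/Sv at -0.86 (SE 0.12, adjusted p = 6.47e-04) and -0.98 (SE 0.24, adjusted p = 0.0270). The other set of Elovl5 differed by -0.92 and was not called, and that of Stard4 by -1.74, called in 5 of the 9 fits that left out 1 array. Of 25 tested channels and transporters of ions, water and urea, Slc14a1 was the 1 called (4%). Of 16 tested protease inhibitors 3 were called (18.8%), or 1 without either 129/Sv array or B6 array 3 or 4. Serpina3n was called higher in 129/Sv, while Serpinf1, an antiangiogenic factor, and Serpinh1, the collagen chaperone, were called higher in B6 at 0.54 (SE 0.13, adjusted p = 0.0284) and 0.59 (SE 0.14, adjusted p = 0.0254). A second Serpinf1 set differed by 0.76, called in 4 of those 9 fits, and the other Serpinh1 set by 0.25, not called. The calls of Stard4, Serpinf1 and Serpinh1 were lost without either 129/Sv array or 2 single B6 arrays (adjusted p up to 0.296, 0.208 and 0.244), and that of Sc5d without 129/Sv array 1 (adjusted p = 0.0756).

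Of 19 tested circadian clock genes, 2 were called higher in B6 and 1 higher in 129/Sv (15.8%), with a median of -0.12. Without 129/Sv array 1 the counts were 0 and 1, and without B6 array 4 they were 2 and 3. Nfil3, a repressor, had 694 and 911 in 129/Sv and 1707, 2906, 3161 and 1459 in B6, a difference of 1.44 (SE 0.27, adjusted p = 0.00586). Npas2, a partner of Bmal1, differed by 1.51 (SE 0.40, adjusted p = 0.0431) and Nr1d2, a nuclear receptor repressor, by -0.64 (SE 0.13, adjusted p = 0.00769), with its other set at -0.38 and not called. The labels give no time of dissection, so hour of day and strain cannot be told apart for these genes. Of 24 tested immediate early genes, 0 were called by limma in either direction, with a median of -0.05, or 1 without 129/Sv array 2 or null array 2, and Nr4a1, an orphan nuclear receptor, was bright in both strains and differed by -0.17 (SE 0.17, adjusted p = 0.686). The call of Npas2 held in 2 of the 9 fits that left out 1 array (adjusted p up to 0.338), and that of Nfil3 was lost without 129/Sv array 1 and that of Nr1d2 without either 129/Sv array (adjusted p up to 0.0980 for both).

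**Figure D5:**
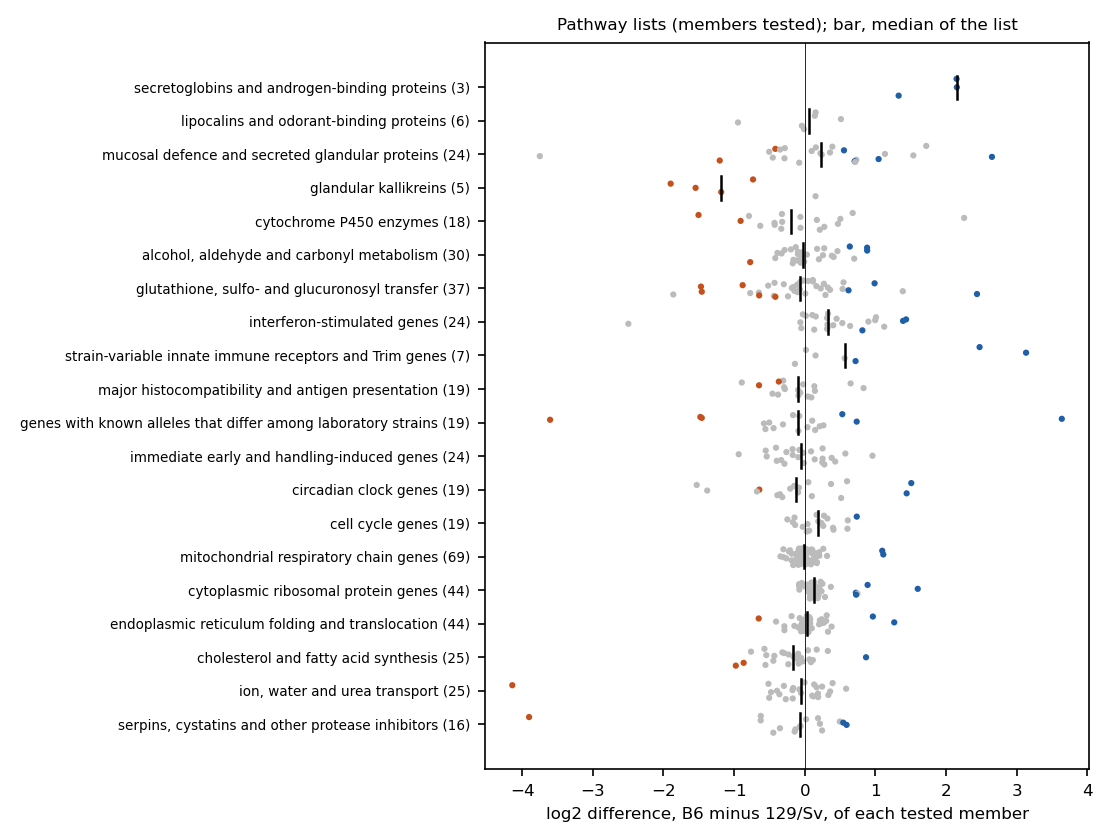
Log2 difference, B6 minus 129/Sv, of every tested member of the 20 pathway lists, 1 row a list with its number of members tested. Blue points were called higher in B6, orange points higher in 129/Sv and grey points were not called, and black bars mark the list medians, which lie farthest from 0 for the secretoglobins and the glandular kallikreins.

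Markers of other cell types that a dissected gland could hold also moved with strain in part. In bulk RNA fewer cells of a type and less RNA per cell cannot be told apart. Of 20 tested fibroblast and matrix markers, 2 were called higher in B6 and 0 higher in 129/Sv (10%), and 18 had a positive difference, with a median of 0.39. Without B6 array 2 the count was 7 higher in B6, and without either 129/Sv array it was 1. The summed signal of the 22 markers on the array, tested or not, was 98700 to 102700 in 129/Sv and 115300 to 144900 in B6, without overlap. Col3a1 had 7464 and 6484 in 129/Sv and 11546, 11408, 11653 and 12152 in B6, a difference of 0.75 (SE 0.10, adjusted p = 5.25e-04), with its other set at 0.25 and not called, and Col6a3 differed by 0.84 (SE 0.18, adjusted p = 0.0126), which lost its call when either 129/Sv array was left out (adjusted p up to 0.162). Serpinh1 and Serpinf1 moved the same way as these collagens, and the part of matrix cells in those results was not tested. All 8 tested endothelial markers had a positive difference and 0 were called by limma, with a median of 0.43. The summed signal of the 14 endothelial markers on the array, tested or not, was 7463 to 7481 in 129/Sv and 9860 to 10470 in B6.

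Olfactory neuron and sustentacular markers varied most among B6 arrays. Of 6 tested, 1 was called higher in B6 (16.7%), Adcy3, the adenylyl cyclase of olfactory cilia, at 1.25 (SE 0.29, adjusted p = 0.0224), and the median was 1.58. The summed signal of the 15 markers on the array, tested or not, was 3351 to 4630 in 129/Sv and 4547 to 17950 in B6, which overlapped. Omp, the olfactory marker protein, had 607 and 815 in 129/Sv and 3323, 703, 1159 and 1514 in B6. Cyp2g1 is itself among the 6 tested markers, so the median and the summed signal include it. Among the wild-type arrays, Adcy3 was above the array median on B6 arrays alone, the strain in which it is high. The share called and the median therefore depend in part on the filter on low signals, which 6 of the 15 markers passed. B6 array 1 was the highest in Omp as in Cyp2g1, and the part of olfactory tissue in the Cyp2g1 values was not tested. The call of Adcy3 was lost without either 129/Sv array or B6 array 4 (adjusted p up to 0.201), and 3 of the 6 markers were called without B6 array 2 and 2 without null array 3.

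Of 14 tested macrophage and neutrophil markers 3 were called (21.4%), each of them lost without 129/Sv array 1. The complement genes C1qa and C1qb were called higher in B6, at 0.90 (SE 0.15, adjusted p = 0.00256) and 0.69 (SE 0.16, adjusted p = 0.0174), the other sets of C1qb being at 0.20 and 0.52 and not called, and Lyz2 higher in 129/Sv, with a median of 0.18. The calls of C1qa and C1qb were lost without 129/Sv array 1 (adjusted p up to 0.0567 and 0.251). Krt15, a basal keratin, was the 1 of 10 tested basal, duct and myoepithelial markers called, higher in 129/Sv at -1.68 (SE 0.35, adjusted p = 0.0104), a call lost without either 129/Sv array (adjusted p up to 0.125). Of 14 tested serous and secretory epithelium markers 3 were called (21.4%). Scgb1b27 and Scgb2b27 were called higher in B6 and Epcam, an epithelial adhesion molecule, higher in 129/Sv at -0.49 (SE 0.09, adjusted p = 0.00643), a call lost without either 129/Sv array (adjusted p up to 0.0645). By limma 0 of the tested ciliated cell (10), B and plasma cell (4), T cell (1), cartilage (6), muscle (2), adipocyte (3), erythroid (2) and nerve (3) markers were called. Igha, the immunoglobulin A heavy chain, was bright and overlapped between strains, at 85359.6 and 59692 in 129/Sv and 75969, 73239, 52711 and 42437 in B6.

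The null arrays have a mixed background that carries alleles of both strains, and 272 probe sets had at least a 2-fold difference. In 109 of them the null mean lay within 0.25 of the strain difference from B6, or beyond B6. In 62 it lay within 0.25 from 129/Sv, or beyond 129/Sv, and in 101 between these ranges. These arrays also shaped the estimate of spread, so this is a description with no test.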

How the data were processed

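Total RNA of pooled lateral nasal glands was hybridised to 1-colour Affymetrix arrays. The deposited values are linear signal intensities that the authors computed with MAS5, as named in the submitters' processing notes, per the labels. The MAS5 version was not given in the sources used here. With 2% trimmed at each end, the mean signal was 1500.6 on each of the 9 arrays, so arrays had been scaled to one level. The table used here holds no detection calls, so which dim probe sets were above background is unknown, and the number of arrays limits the precision.

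Removing 64 controls from the 22690 probe sets kept 22626. The platform annotation names a single gene for 20380 of these, several for 691 and none for 1555, and 20351 were matched to RefSeq. Signals were converted to log2(signal + 16). Probe sets above their array's median on at least 2 of 9 arrays were tested, 12575 in all. A probe set could thus be tested through the arrays of a single strain. The share called, its direction and the median of a gene list can therefore depend in part on this filter. In limma 3.58.1 (R 4.3.3) a mean per group was fitted over the 9 arrays, with eBayes and trend. Adjusted p-values are two-sided, by Benjamini-Hochberg over all probe sets, with a threshold of 0.05. The gap between 2 probe sets of a gene was fitted in the same way as their array-wise difference, over 4116 pairs. A gene was represented by its probe set with the highest mean.

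The genes named were the 10 largest called in each direction, up to 4 called members of each of 34 gene lists (the brightest tested member where none was called), the 6 largest genes with all probe sets called one way, the 8 largest gaps between probe sets, and Cyp2g1, Pttg1, Nnt, Obp1a, Scgb1b27 and Scgb2b27. Others were chosen after their values were seen. The comparison, its members and the lists were chosen with earlier results of these data known. The alternatives were other normalizations, pseudocounts of 1 and 64, other filters, probe set types and thresholds, fits of other arrays or with weights or a block, and each array left out in turn. List counts under other arrays and normalizations were added after seeing the data.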

Additional observations from a re-analysis of the deposited data

Results flagged for a closer look

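Of 95 named genes, each by its brightest probe set, 3 had 1 of the 4 B6 arrays apart from the other 3 by Dixon's criterion. Chance alone meets this criterion in about 1 of 20 groups, so 3 of 95 is no more than chance would give. Agr2 had a signal of 4280 on B6 array 1, beside 5623 to 5894 on the other B6 arrays. Rsad2 had 506 on B6 array 2, beside 687 to 724. Nr4a1 had 13503 on B6 array 3, beside 10711 to 11076. The flagged arrays differ between the 3 genes.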

How the results depend on the processing

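With the main setting 653 probe sets were called, 272 of them at least 2-fold, and 59 pairs of probe sets. At an adjusted p under 0.01 in limma, 345 probe sets and 29 pairs were called. With 1 probe set a gene 407 genes were called, 145 of them at least 2-fold, and with all probe sets of a gene averaged 397 and 141. A filter at the 75th percentile left 156 calls of at least 2-fold, and plain _at probe sets alone gave 169 such calls and 27 pairs. With no filter on low signals 28 pairs were called, and without B6 arrays 1 and 2 there were 34. Leaving out single arrays gave 341 to 863 probe sets, 216 to 294 of at least 2-fold and 28 to 58 pairs, with the lowest counts of probe sets without 129/Sv array 2 (341) and array 1 (342). Some of these settings had fewer features or arrays than the main setting, and the cause of the changes was not tested. Apart from the replicate block, given next, the other alternatives left these 3 counts within 1.5 times. Setting equal array medians gave 340 called higher in B6 and 356 higher in 129/Sv.

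The labels do not say whether arrays of the same number share anything else. Their deviations from the group means correlated at -0.075 to 0.096. The deviations of the 2 129/Sv arrays mirror each other, so these correlations cannot decide whether such arrays shared a batch. With the replicate number as a block, 558 probe sets, 274 of at least 2-fold and 31 pairs were called. For single named probe sets, 2313 alternative values kept their side of the threshold, 238 lost the call, 6 gained it, 21 moved and 0 changed sign while called.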

Other observations

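Probe sets without a single gene symbol held some of the widest strain differences and stand outside every list above. Among the 653 called, 40 had no symbol and 45 had several, and together 52 were higher in B6 and 33 higher in 129/Sv. The widest difference among these was that of a set with no symbol, which had signals of 82.3 and 81.2 in 129/Sv and 8493, 9533, 9570.2 and 12168 in B6, a difference of 6.66 (SE 0.14, adjusted p = 1.08e-12) in limma. A second set without a symbol had 153 and 139 in 129/Sv and 12860.3, 11059, 15195 and 16562 in B6, a difference of 6.41 (SE 0.14, adjusted p = 2.34e-12). Both were dim on the 129/Sv arrays and bright on every B6 array, and the next 2 sets, also without a symbol, differed by 5.28 (SE 0.28, adjusted p = 4.30e-08) and 4.61 (SE 0.17, adjusted p = 1.18e-09). A set shared by copies of the histone H4 gene was higher in 129/Sv by -2.13 (SE 0.23, adjusted p = 4.81e-05). These sets were chosen after their values were seen.

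Called genes were unevenly spread over the chromosomes, as a description with no test. Among tested genes placed on a chromosome, the share called was highest on chromosome 14, with 23 of 267 (8.61%), and on chromosome 4, with 36 of 472 (7.63%). It was lowest on chromosome 16, with 2 of 253 (0.791%), and on chromosome X, with 3 of 205 (1.46%), beside 5.29% over all genes tested. There were 5 runs of at least 3 neighbouring tested genes that were all called, of which the secretoglobins and kallikreins of chromosome 7 were 2. On chromosome 8, Colgalt1, Zfp617 and Tpm4 were all higher in B6 at 0.80, 0.94 and 0.58, the calls of Zfp617 and Tpm4 being lost without 129/Sv array 1, and that of Tpm4 also without 3 other arrays (adjusted p up to 0.0544 and 0.228). The others mixed directions, with Saraf, Mfhas1 and Tusc3 at 0.77, 0.73 and -0.87 on chromosome 8, and Hnrnpc, Rpgrip1 and Supt16 at 0.39, 5.22 and -1.32 on chromosome 14.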
